A study of Rattus norvegicus with 15 samples.

Results

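Bone of ovariectomized rats was compared with bone of Blank rats over all genes, to describe what the 4 ovariectomized groups had in common against Blank. The members were the 12 libraries of the groups Model, SYT, YJT and YJZYT and the 3 libraries of Blank, which are all 15 libraries of the series, and 17657 of the 22468 genes in the table passed the filter on low counts and were tested. Each ovariectomized group had the same weight: the quantity compared was the average of the 4 group means minus the Blank mean, on a log2 scale. All rats were female Sprague-Dawley. Blank carried the treatment label none, and Model was ovariectomized with the condition label Osteoporosis. SYT, YJT and YJZYT were ovariectomized too and are identified by nothing but these names. Zhuanggu Zhitong Capsule, a herbal medicine from China, is named in the series' title, and which of the groups received it is not stated. No sham operation and no ages are described, so ovariectomy, the surgery itself and anything else that set Blank apart from the other 4 groups cannot be told apart. Each group had 3 libraries, no separate animals are named for them, so a p-value reflects the spread among these samples alone, and that spread may be technical. Libraries are named by group and replicate, so that Model2 is replicate 2 of Model.

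Ovariectomy removes the main source of oestrogen. Oestrogen restrains osteoclasts, the cells that resorb bone, partly by limiting RANKL, the cytokine that drives their formation, and its loss in rats speeds bone turnover, lowers bone mass and is widely used as a model of postmenopausal osteoporosis. A piece of bone also holds marrow with blood-forming cells, fat, vessels and stroma, and can carry attached tendon and skeletal muscle, so that bulk RNA from it is a mixture.

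Library totals ran from 64472700 to 74255667 counts. Levels below are CPM, the counts of a gene relative to the library total after TMM scaling, and log2 differences come from edgeR. Their standard error (SE) was derived from the edgeR test, as the size of the difference over the root of its F statistic. Markers of the labelled tissue were abundant in every library: the bone collagen Col1a1 had 2110 to 75000 CPM, the osteoblast product osteocalcin (Bglap) 226 to 2750 CPM and the osteoclast phosphatase Acp5 207 to 2830 CPM. Haemoglobin beta (Hbb) was at 12900 to 68300 CPM, and the skeletal muscle actin Acta1 was at 5.56 to 1940 CPM. In such bulk samples, fewer cells of a type and less RNA per cell cannot be told apart.

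The genes with the clearest difference in each direction are the ones described next, and upstream sequence was looked up for these 10 genes. RefSeq (build GRCr8) gave the 250 bases before the start of 8 of them, and 4 are shown because they belong to the called or nearly called genes Adssl1 (RefSeq symbol Adss1), Mlf1 and Per1 and to Skp2, which had the smallest unadjusted p among higher genes with a mean of 1 FPKM or more and no overlap with Blank. Each runs 5′ to 3′ towards the gene, and capitals mark the matches found.
Adssl1, chr6:137500299-137500548, plus strand: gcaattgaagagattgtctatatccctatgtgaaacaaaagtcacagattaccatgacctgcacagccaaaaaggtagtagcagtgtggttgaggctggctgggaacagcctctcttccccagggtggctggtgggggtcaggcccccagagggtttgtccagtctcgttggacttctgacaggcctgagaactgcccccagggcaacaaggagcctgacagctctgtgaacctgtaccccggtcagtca
Mlf1, chr2:153958341-153958590, plus strand: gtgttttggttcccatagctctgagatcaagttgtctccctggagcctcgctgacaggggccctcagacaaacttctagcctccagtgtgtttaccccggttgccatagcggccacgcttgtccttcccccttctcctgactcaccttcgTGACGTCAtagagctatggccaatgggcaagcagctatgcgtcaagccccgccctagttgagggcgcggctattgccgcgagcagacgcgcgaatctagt
Per1, chr10:54304126-54304375, plus strand: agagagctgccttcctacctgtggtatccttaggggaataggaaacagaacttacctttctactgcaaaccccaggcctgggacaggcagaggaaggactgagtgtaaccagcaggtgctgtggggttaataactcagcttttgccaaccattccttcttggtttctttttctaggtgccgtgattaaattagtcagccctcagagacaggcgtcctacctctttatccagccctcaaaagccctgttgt
Skp2, chr2:59916472-59916721, minus strand: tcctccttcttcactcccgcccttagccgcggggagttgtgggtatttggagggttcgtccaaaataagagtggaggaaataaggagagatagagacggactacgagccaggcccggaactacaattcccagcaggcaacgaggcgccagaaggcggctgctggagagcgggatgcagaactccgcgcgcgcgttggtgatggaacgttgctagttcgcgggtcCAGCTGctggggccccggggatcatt
The oestrogen response element (GGTCA, any 3 bases, TGACC) and the glucocorticoid response element (GNACA, any 3 bases, TGTNC), searched on both strands, matched in none of the 8 windows, against 0.0239% and 0.373% of 33469 rat promoter windows of the same length. The E-box CAGCTG, which muscle regulators can bind, was matched once, in Skp2, at 26 bases before the start, and 12% of all windows hold it. The cAMP response element TGACGTCA, added to the search after the results were seen, was matched once, in Mlf1, 100 bases before the start, and 1.59% of all windows hold it. None of the matches overlapped another. A match describes letters in these windows only.

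Over the average of the 4 groups, 3 genes passed an adjusted p of 0.05 in edgeR's quasi-likelihood test (0.017% of the genes tested), and all 3 fell: Pkia, Adssl1 and Mlf1. All 3 are abundant in striated muscle. No gene rose past the threshold (0% of genes), where 876 genes were higher (4.96%) and 1138 lower (6.45%) at an unadjusted edgeR p under 0.05, 2014 in all (11.4%). DESeq2 called 148 genes higher and 213 lower, and limma on log2(FPKM + 1) called 1 higher and 37 lower. The 3 edgeR calls were among those of these DESeq2 and limma fits, while limma on log2(FPKM + 0.1) called 0 genes. Many genes described below that did not pass with edgeR were DESeq2 calls. Lower ones such as Fabp4, Vcam1, Cd163 and Errfi1 were among them, as were higher ones.

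Pkia encodes a peptide inhibitor of protein kinase A (in the deposited table chromosome 2, 96595088 to 96668222, with the genome build not given in the sources used here). It was at 22.3, 19.9 and 25.6 CPM in Blank, and the 12 ovariectomized libraries had a lowest value of 4.35, a median of 8.26 and a highest of 19.4 CPM. The ranges did not overlap, but YJT1, the highest ovariectomized library, was just under Blank2. The log2 difference was -1.44 ± 0.18 (SE), with an adjusted edgeR p of 0.0305, and against Blank it was -2.01 for Model, -1.28 for SYT, -0.45 for YJT and -2.03 for YJZYT.

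Adssl1, which in muscle catalyses the adenylosuccinate step of the purine nucleotide cycle (chromosome 6, 137184820 to 137206693), was at 56.1, 49.8 and 67.4 CPM in Blank. The ovariectomized libraries ran from 6.67 over a median of 18.9 to 40.4 CPM, again with no overlap and with the 3 YJT libraries and SYT3 nearest to Blank. The log2 difference was -1.48 ± 0.20 (SE), with an adjusted edgeR p of 0.0305. By group it was -2.10 (Model), -0.86 (SYT), -0.57 (YJT) and -2.40 (YJZYT).

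Mlf1, myeloid leukaemia factor 1, is named for a leukaemia fusion and is strongly expressed in skeletal muscle and heart (chromosome 2, 164549455 to 164582643). Blank had 24.4, 21.9 and 30.7 CPM, and the ovariectomized libraries had 3.60 at the lowest, 6.05 at the median and 21.0 at the highest. All were below Blank, YJT2 by the least. The log2 difference was -1.63 ± 0.22 (SE), with an adjusted edgeR p of 0.0305, and -2.53 (Model), -1 (SYT), -0.47 (YJT) and -2.51 (YJZYT).

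The 3 calls leaned on particular groups and libraries. Without the YJZYT group in the average 0 genes passed, and without Model 1 did, the slow myosin light chain Myl2 and none of these 3. Leaving out Blank1, Blank3, SYT2, YJT2, YJT3 or YJZYT3 alone also left 0 calls with edgeR, with the adjusted p of Pkia between 0.0516 without YJT3 and 0.491 without Blank3, while the count was 39 without YJZYT1, 10 without Blank2 (3 of them higher), 7 without YJT1, 6 without Model2 and 5 without YJZYT2. Leaving out Model3 kept Pkia alone, and leaving out Model1 kept Pkia and Adssl1. The log2 difference of Pkia stayed between -1.77 and -1.09 over all the alternatives run.

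The next genes did not pass with edgeR but lay below Blank in all 12 libraries. Sh3bgr, a short thioredoxin-like protein enriched in heart and skeletal muscle, had 25.7, 32.2 and 33.8 CPM in Blank and 3.20, 8.67 and 23.2 CPM as the lowest, median and highest ovariectomized values, with a log2 difference of -1.62 ± 0.24 (SE) and an adjusted edgeR p of 0.0622. Per1, a core repressor of the circadian clock that glucocorticoids also induce, had 74.5, 54.6 and 66.9 CPM in Blank and 8.93, 18.4 and 52.6 CPM in the ovariectomized libraries, with a log2 difference of -1.69 ± 0.26 (SE) and an adjusted edgeR p of 0.0622. For Per1 the libraries YJT1 and Blank2 nearly met, and the 3 YJZYT libraries were the lowest together with Model2. With no scaling factors Per1 passed, at an adjusted edgeR p of 0.0440. DESeq2 called both genes, with adjusted p-values of 1.94e-05 for Sh3bgr and 4.47e-05 for Per1.

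**Figure D1:**
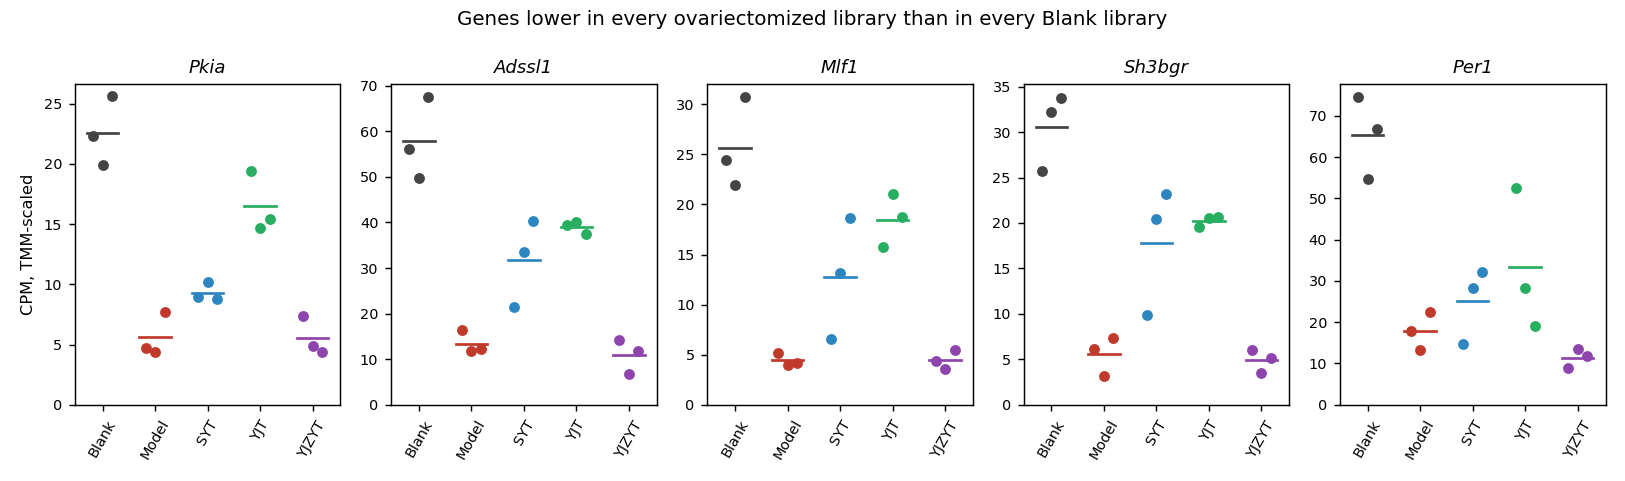
CPM (vertical axes, TMM-scaled, from 0) of Pkia, Adssl1, Mlf1, Sh3bgr and Per1 in the 3 libraries of each group (points) with the group mean (line). Every ovariectomized library is below every Blank library. Model and YJZYT are lowest for the muscle-expressed genes, with Pkia at 4.35 to 7.74 CPM in their 6 libraries, while YJT is nearest to Blank.

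The ovariectomized groups were also compared with each other for these genes. The fit held all 15 libraries, so Blank entered the estimate of the spread but not the contrast. The 4 ovariectomized groups differed with an unadjusted edgeR p of 1.92e-05 for Mlf1, 2.73e-05 for Adssl1, 4.41e-05 for Sh3bgr and 5.19e-05 for Pkia. The smallest p was 1.60e-05 for Tnnc1, the slow and cardiac troponin C. None of these passed adjustment (0.161 to 0.183). Over all genes 0 passed (0%) with edgeR, 1044 had an unadjusted p under 0.05 (5.91%), and DESeq2 called 335. Tnnc1 shows the pattern plainly: Blank had 76.0, 69.3 and 79.2 CPM, Model 21.1, 16.1 and 27.5, YJZYT 20.7, 12 and 21.5, but SYT 104, 44.7 and 71.8 and YJT 117, 110 and 55.2. Model and YJZYT were below Blank, and SYT and YJT overlapped it.

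Genes of skeletal muscle made up the lists with the largest medians. The fast-fibre list (myosin, actin and troponin genes of fast muscle) had a median log2 difference of -2.17 over its 11 tested genes, the energy-enzyme list -1.98 over 15, the sarcomere-scaffold list -1.78 over 16, the slow-fibre list -1.70 over 11 and the calcium-handling list -1.57 over 14, where the median over all genes tested was -0.01. All 67 of these genes were lower in the average, against 51.0% of all genes. An unadjusted edgeR p under 0.05 was reached by 9 of 11, 14 of 15, 14 of 16, 7 of 11 and 10 of 14. Over all genes 6.45% were lower at that p and 4.96% higher, the shares to set beside the lists below too. Genes of a list come from the same libraries and can vary together, so they are not separate observations. Adssl1 was the 1 member that passed adjustment with edgeR, while DESeq2 called 23 of the 67. The median was not even across the groups: for the fast-fibre list it was -3.06 (Model), -1.03 (SYT), -0.78 (YJT) and -3.70 (YJZYT), and for the slow-fibre list -2.31, -0.23, 0.13 and -3.80 in the same order.

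Single muscle genes followed that order. Mylpf, the fast phosphorylatable myosin light chain, had 430, 701 and 572 CPM in Blank and 9.65, 77.2 and 358 CPM as the lowest, median and highest ovariectomized values, and the ranges did not overlap (log2 difference -2.33 ± 0.45, SE, adjusted edgeR p 0.115). Myl2, its slow counterpart, had 23.7, 13.0 and 23.7 CPM in Blank and was at 0 in Model2 and in all 3 YJZYT libraries, but reached 32.0 CPM in YJT1. Cacng1, a subunit of the muscle calcium channel, had 9.79, 11.3 and 14.7 CPM in Blank against 0.0963 to 9.21 CPM. For Tmod4, which caps thin filaments in muscle, Blank had 31.0, 29.8 and 40.0 CPM and the ovariectomized libraries 1.13 to 26.6 CPM. Blank was above all others for Mylpf, Cacng1 and Tmod4, and not for Myl2. The median of the muscle regulator and satellite cell list (Myog, Myf6 and others) was -1.54 (-0.93 without Blank1). All 12 genes were lower, 4 of them at an unadjusted edgeR p under 0.05 (6.45% of all genes). By group the median was -1.81 (Model), -0.83 (SYT), -0.31 (YJT) and -2.93 (YJZYT).

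Together the 67 genes took 0.987%, 0.749% and 1.25% of the counts in Blank1 to Blank3. In the ovariectomized libraries the share ran from 0.0219% in YJZYT2 to 0.724% in YJT1 with a median of 0.187%, so all 12 lay below Blank, YJT1 by little. Their mean was 0.336% ± 0.278 (SD, n = 12) against 0.994% ± 0.249 (SD, n = 3). Because the lists were chosen with earlier results of these data known, no p-value is read from this share. How much muscle tissue the bone samples carried is not given in the labels, and its part in these differences was not tested.

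Other genes were read beside a muscle score, the median over the 67 genes of each library's log2 deviation. It was 1.5 to 2.03 in Blank, 1.16 to 1.63 in YJT, -0.33, 1.23 and 1.42 in SYT1 to SYT3, -2.69 to -0.23 in Model and -4.41 to -0.56 in YJZYT. Within the 12 ovariectomized libraries and with a mean per group, 75 genes had a slope on this score past an adjusted edgeR p of 0.05 (0.425%), and 41 of 17590 with the list members left out (0.233%). With the score as a covariate, 0 genes passed in the average contrast (0%), 1422 had an unadjusted p under 0.05 (8.05%), and the log2 differences were -1.09 for Pkia, -0.93 for Adssl1 and -1.24 for Mlf1, with an adjusted edgeR p of 0.450 for each. The list medians were then 0.10 for fast fibres, 0.36 for slow fibres, 0.41 for the sarcomere scaffold, -0.28 for calcium handling and -0.26 for energy enzymes. The score is the median over these same 67 genes, Adssl1 among them, so list medians near 0 are built into this fit. They and the Adssl1 value are no separate reading.

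**Figure D2:**
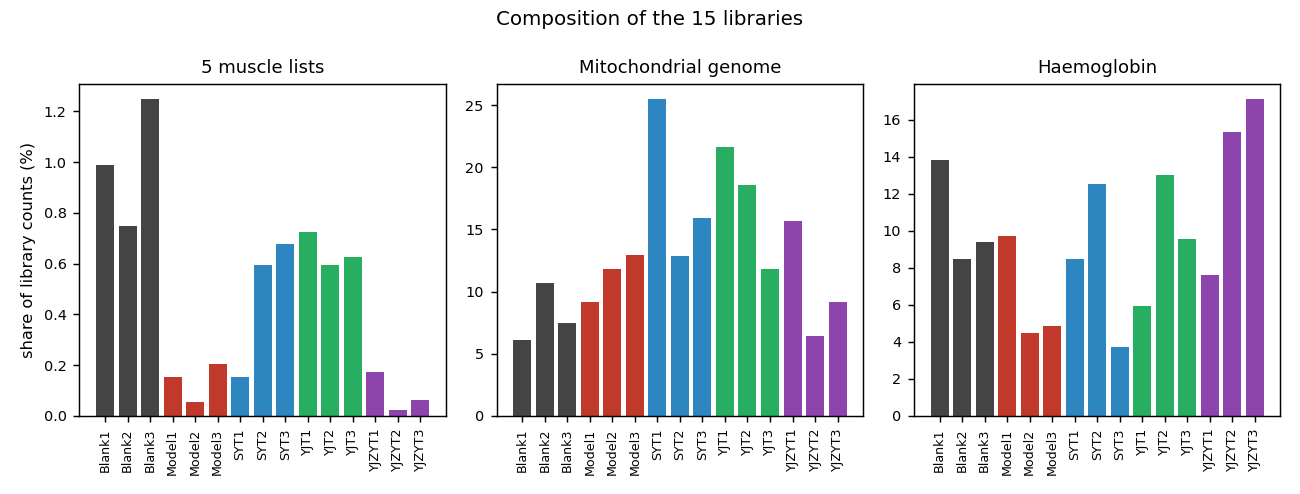
Share of each library's counts (vertical axes, percent) in the 67 genes of the 5 muscle lists, in the mitochondrial genome and in haemoglobin, with 1 bar per library. The muscle share is highest in the 3 Blank libraries (0.749% to 1.25%), the mitochondrial share overlaps between Blank and the other groups, and the haemoglobin share shows no separation.

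A gene was counted as separated when all 12 ovariectomized libraries lay on 1 side of all 3 Blank libraries. This held for 265 genes (1.5%), of which 132 were lower (0.748%) and 133 higher (0.753%). The 2 sets were of like size but not of like magnitude: the median log2 difference was -1.38 for those lower and 0.54 for those higher, and 79 of the lower but 30 of the higher genes differed by more than 2-fold. Among the 132 lower genes 13 were muscle-list members and 9 had a called slope on the muscle score (0.425% of all genes did). Of the same 132, 43 had an unadjusted p under 0.05 for differences among the ovariectomized groups (5.91% of all genes did). Among the 133 higher genes 1 had such an unadjusted p and 0 had a called slope. With the muscle score as covariate, 46 of the lower and 87 of the higher genes kept an unadjusted p under 0.05, where 8.05% of all genes had one. These genes were picked for lying outside Blank, so such p-values are no separate test of them.

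The 5 higher genes with the smallest p among those with a symbol, a mean of 1 FPKM or more and no overlap with Blank are described next, and none passed adjustment. Skp2, the substrate receptor of the ubiquitin ligase that removes the cell-cycle inhibitor p27, had 15.5, 16.6 and 15.5 CPM in Blank and 21.3, 26.6 and 31.6 CPM as the lowest, median and highest ovariectomized values. The ranges did not overlap, and the log2 difference was 0.72 ± 0.13 (SE, adjusted edgeR p 0.115). By group it was 0.69 (Model), 0.52 (SYT), 0.76 (YJT) and 0.93 (YJZYT), and YJZYT was the 1 group in which it passed on its own (adjusted edgeR p 0.0417).

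Kctd11, an adaptor of a cullin ubiquitin ligase that dampens Hedgehog signalling, had 4.5, 5.29 and 3.55 CPM in Blank against 7.11, 8.52 and 10.4 CPM. Its 4 group values were 0.89, 1, 0.91 and 1.01 (Model, SYT, YJT, YJZYT), and its average log2 difference was 0.95 ± 0.18 (SE, adjusted edgeR p 0.115). Pias4, a ligase that attaches SUMO to other proteins, had 13.7, 13.0 and 12.2 CPM in Blank against 15.9, 20.8 and 23.6 CPM, with a log2 difference of 0.62 ± 0.13 (SE, adjusted edgeR p 0.147) and group values of 0.51, 0.71, 0.69 and 0.58.

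Pigv, a mannosyltransferase that builds the GPI anchor of cell-surface proteins, had 10.3, 8.62 and 8.81 CPM in Blank and 10.6, 15.0 and 21.9 CPM in the ovariectomized libraries, with YJZYT3 just above Blank1 and Model2 the highest. Its log2 difference was 0.71 ± 0.16 (SE, adjusted edgeR p 0.163), with group values of 0.95, 0.59, 0.86 and 0.43 (Model, SYT, YJT, YJZYT) and an unadjusted edgeR p of 0.0597 among the ovariectomized groups. Orai3, a store-operated calcium channel, had 8.79, 8.10 and 10.5 CPM in Blank against 11.9, 14.1 and 15.4 CPM, and 0.64, 0.62, 0.61 and 0.55 as group values. All 12 libraries lay within a narrow band above Blank, and the average was 0.60 ± 0.14 (SE, adjusted edgeR p 0.164). DESeq2 called all 5 of these genes, with an adjusted p from 1.56e-05 for Kctd11 to 0.00144 for Pigv. With the muscle score as covariate their edgeR log2 differences were 0.63, 1.05, 0.53, 0.55 and 0.68 in the order given here.

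**Figure D3:**
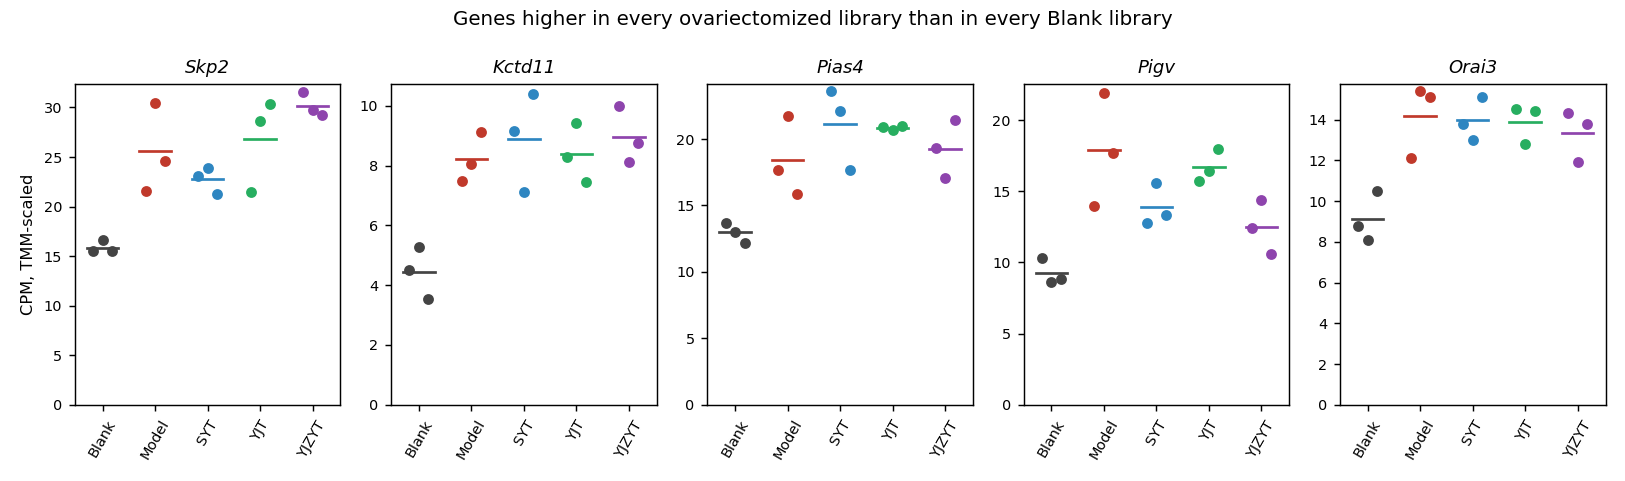
CPM (vertical axes, TMM-scaled, from 0) of Skp2, Kctd11, Pias4, Pigv and Orai3 in the 3 libraries of each group (points) with the group mean (line). All 12 ovariectomized libraries are above all 3 Blank libraries for each gene, and the 4 group means lie close together for Kctd11 and Orai3.

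A stricter reading asks each of the 4 groups to differ from Blank by itself, by the largest of its 4 p-values. The 4 comparisons share the 3 Blank libraries, so they are not independent of each other. With edgeR 0 genes passed adjustment (0%), and 124 had an unadjusted p under 0.05 with the same sign in every group (0.702%), 93 higher (0.527%) and 31 lower (0.176%). DESeq2 passed 4 genes on the same reading, and 186 had an unadjusted p under 0.05. Taken 1 group at a time, edgeR called 4 genes in Model (0.0227%), 0 in SYT (0%, 887 or 5.02% unadjusted, 35 by DESeq2), 0 in YJT (0%, 1465 or 8.3% unadjusted, 116 by DESeq2) and 66 in YJZYT (0.374%), of which 63 were lower. The Model count was 0 without any single one of Blank1, Blank3, Model1, Model2, SYT2, YJT2 or YJT3, 1 without Model3, 2 without YJT1 or YJZYT3 and 7 without YJZYT2. The YJZYT count was 0 without Blank1, Blank3, YJZYT2 or YJZYT3, 8 without Blank2, 12 without YJT2, 20 without YJT3, 24 without Model1, 27 without SYT2, 144 without SYT1 and 168 without Model2 or YJZYT1.

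The 5 lower genes with the smallest such p are described next, a choice added after values were seen. Higher genes were more numerous on this reading (93 against 31 lower at an unadjusted edgeR p under 0.05). The 5 higher genes of the same rule are not described as a set. Hpgds, the haematopoietic prostaglandin D synthase, had 11.3, 6.30 and 11.1 CPM in Blank and 1.84, 3.34 and 4.80 CPM in the ovariectomized libraries. The groups did not overlap, and the log2 difference was -1.39 (Model), -1.28 (SYT), -1.93 (YJT) and -1.59 (YJZYT), -1.55 ± 0.26 (SE) on average (adjusted edgeR p 0.105). Dnase1l3, a secreted nuclease made by macrophages and dendritic cells, had 41.2, 10.7 and 38.9 CPM in Blank against 5.03, 8.52 and 13.7 CPM. Blank2 overlapped the ovariectomized range and the other two Blank libraries were far above it (-1.79 ± 0.33, SE, adjusted edgeR p 0.115).

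Tsc22d3 encodes GILZ, a glucocorticoid-induced regulator of inflammation. It had 188, 177 and 165 CPM in Blank and 38.2, 90.8 and 152 CPM in the ovariectomized libraries, with all YJZYT libraries at the bottom (log2 difference -1.09 ± 0.18, SE, adjusted edgeR p 0.0782). By group it was -0.92, -0.69, -0.76 and -2.00. Chac1, an enzyme that degrades glutathione and is induced by the stress factor ATF4, had 9.54, 13.9 and 11.3 CPM in Blank against 1.83, 4.25 and 7.63 CPM (-1.45 ± 0.26, SE, adjusted edgeR p 0.115). Nampt, the rate-limiting enzyme of NAD salvage, differed least in size: 56.0, 55.4 and 63.7 CPM in Blank against 39.2, 43.8 and 51.9 CPM, with a log2 difference of -0.42 ± 0.10 (SE, adjusted edgeR p 0.170) and -0.48 to -0.36 in the 4 groups. DESeq2 called Hpgds, Dnase1l3, Tsc22d3, Chac1 and Nampt, with an adjusted p from 0.000184 for Tsc22d3 to 0.00838 for Nampt. With the muscle score as covariate the edgeR log2 differences were -1.34 for Hpgds, -1.60 for Dnase1l3, -1.12 for Tsc22d3, -1.11 for Chac1 and -0.46 for Nampt.

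**Figure D4:**
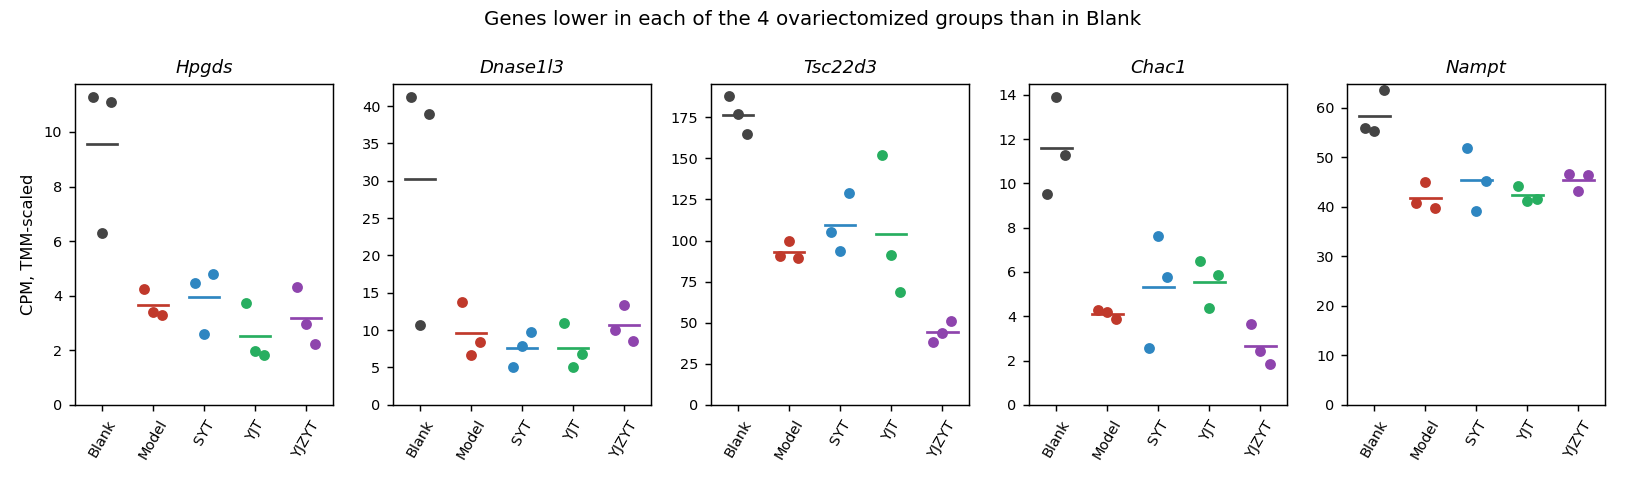
CPM (vertical axes, TMM-scaled, from 0) of Hpgds, Dnase1l3, Tsc22d3, Chac1 and Nampt in the 3 libraries of each group (points) with the group mean (line). Every ovariectomized group mean is below the Blank mean, 1 Blank library of Dnase1l3 (10.7 CPM) lies among the ovariectomized values, and YJZYT is apart from the other 3 ovariectomized groups for Tsc22d3 (38.2 to 51.1 CPM).

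Genes that hormones regulate were described from lists. Of 15 tested oestrogen receptor and target genes, 11 were lower, the median was -0.34, 4 were lower at an unadjusted edgeR p under 0.05 (6.45% of all genes) and 0 passed adjustment. The deposited table's broader gene ontology term cellular response to estradiol stimulus, added after values were seen, was nearly balanced. Of its 41 tested genes 22 were lower and 19 higher, with a median of -0.09. The receptor Esr1 was low, at 1.11 to 3.54 CPM in Blank and 0.959 to 6.49 CPM in the ovariectomized libraries, which overlap (0.75 ± 0.60, SE, adjusted edgeR p 0.705). Nrip1, a corepressor of nuclear receptors, had 28.9, 29.4 and 32.3 CPM in Blank and 16.3 to 28.7 CPM in the ovariectomized libraries, separated by a small gap at Model1 (-0.47 ± 0.15, SE, adjusted edgeR p 0.261). Igf1, a growth factor that supports bone formation, gave -0.79 ± 0.33 (SE, adjusted edgeR p 0.376) with overlap.

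Of 16 tested genes of the glucocorticoid response, 15 were lower, the exception being the receptor Nr3c1 itself at 0.09. The median was -0.78, 9 were lower at an unadjusted edgeR p under 0.05 (6.45% of all genes) and 0 passed adjustment with edgeR. Per1, Errfi1, Tsc22d3 and Klf9 were below Blank in all 12 libraries, Klf9 being named here after its values were seen. Errfi1, an inhibitor of the epidermal growth factor receptor, had 165, 124 and 158 CPM in Blank and 10.8, 33.5 and 109 CPM in the ovariectomized libraries, with YJT1 the highest and YJZYT the lowest (-2.12 ± 0.34, SE, adjusted edgeR p 0.0782). Pdk4, the kinase that shuts off pyruvate oxidation and is abundant in muscle, gave -2.44 ± 0.55 (SE, adjusted edgeR p 0.164) and overlapped. DESeq2 called Per1, Errfi1, Tsc22d3, Klf9 and Pdk4. The list median was -0.65 (Model), -0.32 (SYT), -0.67 (YJT) and -1.74 (YJZYT), and -0.46 with the muscle score as covariate. A broader list, the deposited table's gene ontology term response to glucocorticoid, was added after values were seen. It was less one-sided, with 40 of 63 tested genes lower, 23 higher and a median of -0.20. That median was 0.04 in SYT and -0.03 with the covariate. The 17 clock genes, Per1 among them, had a median of -0.09 (-0.21 without YJT1, -0.05 without YJT3), and the activator Arntl gave -0.69 ± 0.18 (SE, adjusted edgeR p 0.194).

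Among genes of bone cells, which the model is about, 0 passed adjustment with edgeR. The 15 osteoblast genes had a median of 0.03 that turned to -0.07 with no scaling factors, was -0.28 without Blank1 and 0.45 without Blank2, and the median was 0.32 (Model), 0.72 (SYT), -0.43 (YJT) and -0.28 (YJZYT). None of them had an unadjusted edgeR p under 0.05. Col1a1 had 9220, 31200 and 20900 CPM in Blank and 2110, 17560 and 75000 CPM as the lowest, median and highest ovariectomized values, so the ovariectomized range enclosed Blank (0.05 ± 0.75, SE, adjusted edgeR p 0.995, with a sign that turned to -0.06 with no scaling factors). Bglap gave -0.21 ± 0.52 (SE), and the osteoblast transcription factors Runx2 and Sp7 gave -0.01 ± 0.35 and 0.38 ± 0.60 (SE), all with overlap and adjusted edgeR p-values of 0.881 or more. The 2 libraries YJT3 and YJZYT3 were the lowest for Col1a1, at 2110 and 2430 CPM.

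The 17 osteoclast genes had a median of -0.07 (-0.29 without Blank1, 0.05 without YJZYT3) and 1 unadjusted p under 0.05. Ctsk, the collagen-degrading protease of osteoclasts, had 916, 3210 and 1760 CPM in Blank and 423, 2090 and 4130 CPM in the ovariectomized libraries (-0.03 ± 0.53, SE), and Acp5 gave -0.01 ± 0.62 (SE). Tnfsf11, which encodes RANKL, had 3.59, 6.20 and 2.44 CPM in Blank against 0.428, 1.35 and 3.87 CPM, lower on average but overlapping (-1.5 ± 0.43, SE, adjusted edgeR p 0.226). Its group values were -0.73, -0.92, -2.32 and -2.05. Its decoy receptor osteoprotegerin (Tnfrsf11b) gave 0.15 ± 0.69 (SE), with 8.25 to 14.1 CPM in Blank inside 2.71 to 44.2 CPM.

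Osteocytes, the cells embedded in bone matrix, had a list median of -0.61 over 12 genes, with 10 lower and 2 at an unadjusted p under 0.05. The groups were uneven, with medians of 0.08 for Model, -0.08 for SYT, -1.14 for YJT and -0.80 for YJZYT. The list median was -0.33 without Blank3 and 0.10 with the muscle score as covariate. Sost encodes sclerostin, their secreted inhibitor of Wnt signalling. It had 21.1, 5.70 and 17.3 CPM in Blank and 0.802, 1.94 and 17 CPM in the ovariectomized libraries, where YJZYT1 and YJZYT3 (17 and 6.59) and Model3 (5.70) reached into the Blank range. The log2 difference was -2.38 ± 0.58 (SE, adjusted edgeR p 0.177), -3.51 in YJT but -0.83 in YJZYT, and -0.71 with the muscle score as covariate. DESeq2 called it, at an adjusted p of 0.0199. Axin2, a feedback target of Wnt signalling, was above Blank in all 12 libraries, at 4.39 to 7.49 against 2.84, 4.08 and 3.06 CPM (0.72 ± 0.20, SE, adjusted edgeR p 0.226).

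The lists of marrow stroma, fat and vessels had negative medians, and 0 of their genes passed adjustment with edgeR. DESeq2 called some of them, among these Vcam1 (adjusted p 0.0157) and Stab2 (adjusted p 0.0296). Of 13 stromal genes 12 were lower, with a median of -0.55, and of 14 endothelial genes all were lower, with a median of -0.53. At an unadjusted edgeR p under 0.05, 4 and 6 of them were lower, against 6.45% of all genes. Vcam1, an adhesion molecule of stroma and vessels, had 177, 65.2 and 191 CPM in Blank and 22.7, 56.0 and 84.7 CPM in the ovariectomized libraries, where Blank2 lay inside the range of the others (-1.47 ± 0.33, SE, adjusted edgeR p 0.164). Lepr, the leptin receptor that marks marrow stromal cells, had 59.0, 55.8 and 84.7 CPM against 12.9 to 54.3 CPM, with no overlap by a small margin. Stab2, a scavenger receptor of sinusoidal endothelium, had 13.9, 2.80 and 17.3 CPM against 0.458 to 8.27 CPM, again with Blank2 apart from the other Blank libraries.

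Of 18 adipocyte genes 16 were lower, with a median of -0.68. At an unadjusted edgeR p under 0.05, 5 were lower (6.45% of all genes), and 0 passed adjustment with edgeR. Fabp4, a fatty acid carrier of fat and capillaries, had 193, 178 and 255 CPM in Blank and 23.2, 79.8 and 167 CPM in the ovariectomized libraries, without overlap (-1.48 ± 0.27, SE, adjusted edgeR p 0.115). Gpd1, Slc2a4 and Lpl were also separated, and muscle expresses the insulin-regulated glucose carrier Slc2a4 and the lipase Lpl as well as fat does. DESeq2 called Fabp4, Gpd1, Slc2a4 and Lpl, with an adjusted p from 0.00134 for Fabp4 to 0.0302 for Lpl. The fat hormone adiponectin (Adipoq) gave -0.97 ± 0.59 (SE, adjusted edgeR p 0.578) and overlapped, and with the muscle score as covariate the list median was -0.14.

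**Figure D5:**
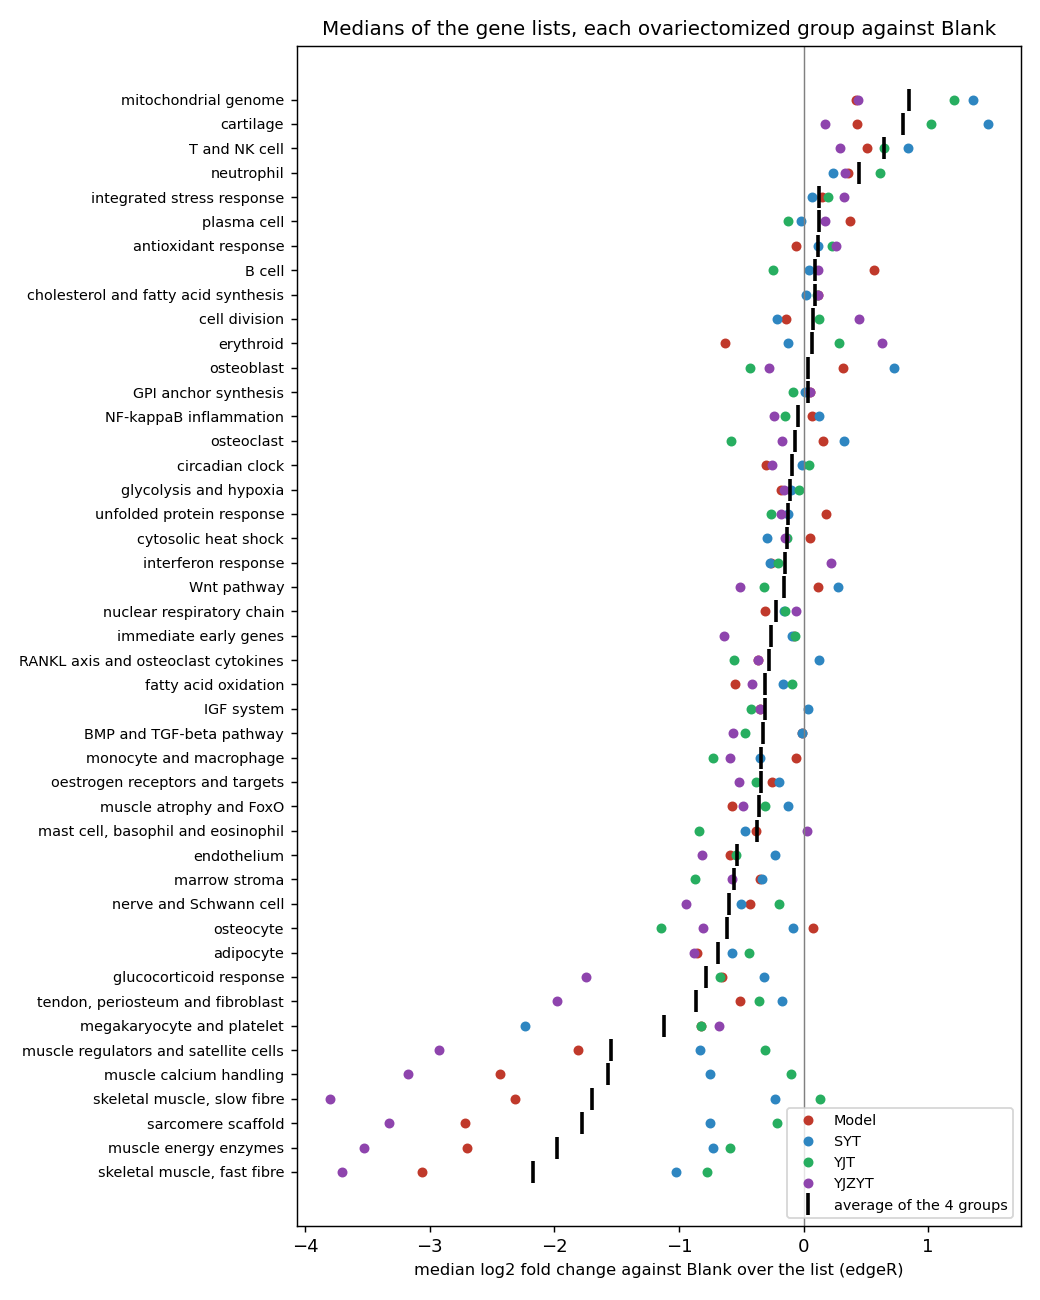
Median log2 difference from Blank (horizontal axis) over the tested genes of 45 lists, for each ovariectomized group (coloured points) and for the average of the 4 (black bars). The muscle lists reach furthest to the left, with Model and YJZYT beyond the bar and SYT and YJT nearer to 0, and among the bars of the average the mitochondrial genome is furthest to the right (0.85), while among single groups cartilage in SYT is (1.48).

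Blood cell lists had medians of both signs, and 0 of their genes passed adjustment with edgeR. All 17 megakaryocyte and platelet genes were lower, with a median of -1.12. Of them 8 had an unadjusted edgeR p under 0.05 (6.45% of all genes were lower at that p), but the groups overlapped for every gene. Itga2b, the platelet integrin chain, had 360, 128 and 257 CPM in Blank and 20.0, 79.7 and 292 CPM in the ovariectomized libraries. The list median was -2.24 in SYT and between -0.83 and -0.68 in the other 3 groups. Of 15 macrophage genes 12 were lower, with a median of -0.34. Cd163, the macrophage receptor that clears haemoglobin, had 55.5, 21.0 and 48.9 CPM in Blank and 5.33, 12.4 and 20.5 CPM in the ovariectomized libraries, separated by less than 1 CPM at Blank2 (-1.69 ± 0.35, SE, adjusted edgeR p 0.128). Hmox1, which degrades the haem taken up this way, had 110, 81.0 and 103 CPM against 35.5 to 74.6 CPM and was separated too (-0.73 ± 0.15, SE, adjusted edgeR p 0.131).

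Of 21 T and NK cell genes 16 were higher, with a median of 0.64 (0.35 without YJT2), 4 had an unadjusted edgeR p under 0.05 (4.96% of all genes) and 0 passed adjustment. Tbx21, the transcription factor T-bet of interferon-producing lymphocytes, had 0.282, 0.463 and 0.636 CPM in Blank and 0.743, 1.46 and 3.88 CPM in the ovariectomized libraries. It was above Blank in all 12 (1.94 ± 0.52, SE, adjusted edgeR p 0.196), at a level under 4 CPM throughout. The T cell receptor component Cd3d gave 1.34 ± 0.43 (SE, adjusted edgeR p 0.262) with overlap, while Cd3g gave -0.03, Cd2 -0.18 and Cd4 -0.25, so the members were not of 1 direction. The neutrophil list had a median of 0.44 with 0 unadjusted p-values under 0.05 in either direction, and the median was 0.17 without SYT1 and -0.26 with the muscle score as covariate. The erythroid list had 0.06, which turned to -0.07 with no scaling factors and to -0.16 without SYT2, and was 0.31 without Blank1.

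All 13 protein-coding genes of the mitochondrial genome were higher, with a median of 0.85 and 10 at an unadjusted edgeR p under 0.05, and 0 passed adjustment. The groups were uneven, with medians of 0.42 for Model, 1.36 for SYT, 1.21 for YJT and 0.44 for YJZYT. Mt-co1, a subunit of cytochrome oxidase, had 18300, 29700 and 21000 CPM in Blank and 19100, 39630 and 88200 CPM in the ovariectomized libraries, with SYT1 the highest and Model1 and YJZYT2 inside the Blank range (0.94 ± 0.37, SE, adjusted edgeR p 0.351). These genes share 1 genome, so they are not 13 separate observations. The mitochondrial genome took 8.07% ± 2.37 (SD, n = 3) of counts in Blank and 14.3% ± 5.49 (SD, n = 12) in the ovariectomized libraries, an exact two-sided permutation p of 0.0703 (0.119 adjusted over 6 measures of library content). The muscle share, the Acta1 share and the muscle score were among these 6. Without YJZYT2, the ovariectomized library with the lowest mitochondrial share (6.43%), the exact permutation p of the mitochondrial share was 0.0412, not adjusted. YJZYT2 was singled out here by its own share, so this p is no support for a difference. Haemoglobin took 10.6% ± 2.86 (SD, n = 3) against 9.36% ± 4.37 (SD, n = 12), with an exact permutation p of 0.644. Among 19 respiratory chain genes of the nucleus 16 were lower instead, with a median of -0.22 and 6 unadjusted p-values under 0.05, Sdhb of succinate dehydrogenase being the smallest (-0.27 ± 0.09, SE, adjusted edgeR p 0.307).

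Of 23 fatty acid oxidation genes tested, 21 were lower and the median was -0.31. At an unadjusted edgeR p under 0.05, 12 were lower (6.45% of all genes). Ucp3, an uncoupling protein of skeletal muscle mitochondria, had 25.7, 14.0 and 35.6 CPM in Blank and 1.62, 4.89 and 18.2 CPM in the ovariectomized libraries, overlapping at SYT2, YJT2 and YJT3 (-2.03 ± 0.38, SE, adjusted edgeR p 0.115). The widely expressed enzyme Hadh gave -0.51 ± 0.11 (SE, adjusted edgeR p 0.147), with 35.7 to 43.5 CPM in Blank against 21.9 to 38.7 CPM.

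The immediate early and NF-kappaB lists are described next, with single genes of each. Among 22 immediate early genes, which respond within minutes to handling and stimulation, 16 were lower, the median was -0.26 (-0.14 without Blank3) and 5 had an unadjusted edgeR p under 0.05 in that direction. Nr4a1, an orphan nuclear receptor, had 45.4, 26.1 and 48.7 CPM in Blank and 5.67, 14.4 and 36.6 CPM in the ovariectomized libraries, with YJT1 and YJT3 inside the Blank range (-1.40 ± 0.26, SE, adjusted edgeR p 0.115). In the NF-kappaB list the median was -0.04 (-0.09 without Model3, 0.05 without Blank2), but the feedback inhibitor Tnfaip3 was below Blank in all 12 libraries, at 6.34 to 11.7 against 16.9, 13.1 and 14.4 CPM (-0.72 ± 0.17, SE, adjusted edgeR p 0.165). The monocyte chemokine Ccl2 was below Blank as well, at 0.683 to 2.43 against 2.69, 2.60 and 5.79 CPM (-1.38 ± 0.33, SE, adjusted edgeR p 0.170). The inflammatory cytokine Il1b gave 0.44 ± 0.36 (SE) and overlapped.

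A few genes were at 0 counts in all 3 Blank libraries. Tldc2 had 5 to 19 counts in every ovariectomized library and the smallest adjusted edgeR p of any higher gene (0.105). Its mean over the 12 ovariectomized libraries was at least 11.9-fold higher than a floor of 3 counts over the Blank group. Sirpd had 0 to 1130 counts (median 308) with 11 of 12 libraries above 0, and Stfa2l1 had 4 to 660 counts (median 96.5). Their means were at least 457-fold and 162-fold higher than the same floor, with adjusted edgeR p-values of 0.194 and 0.252. These ratios hold for the means alone, since single libraries were at 0 (Sirpd in Model3) or 4 counts (Stfa2l1 in YJT2 and YJZYT1). Both belong to families with closely similar copies, whose reads the authors' counting may have split, and these 3 genes were chosen after their values were seen. The same happens in other groups: 2 genes were at 0 in Blank alone and above 0 in the other 12 libraries, and the same count was 1 for Model, 2 for SYT, 0 for YJT and 1 for YJZYT. The 4 genes that DESeq2 passed in each group separately were all at 0 in Blank, namely Sirpd, Stfa2l1, Ptgds (7 of 12 ovariectomized libraries above 0) and RGD1560860 (6 of 12).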

How the data were processed

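Bulk RNA sequencing of bone was analysed in 15 libraries, 3 per group, grouped by their titles and condition labels. The deposited table holds whole-number counts for each gene and library and, per the file headers, FPKM values made by the authors. Tools listed in the submitters' processing notes, whose roles are not stated, are edgeR, DESeq2, StringTie 1.3.4d, HISAT2 2.0.4, cutadapt 1.9 and UMI-tools, and libraries were poly(A)-selected and strand-marked per the labels' protocols. The sources used here do not give the genome build, the annotation or the strand setting of the counting, so near-identical copies and overlapping genes may share reads. Totals of 64472700 to 74255667 counts limit precision less than the spread between libraries does, a biological coefficient of variation of 42.7%.

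Counts were tested with edgeR 4.0.16 in R 4.3.3: filterByExpr (17657 genes kept, 4811 left out), TMM, robust quasi-likelihood with 1 mean per group and 10 residual degrees of freedom, two-sided, with Benjamini-Hochberg adjustment over all genes and a threshold of 0.05. The largest of the 4 p-values against Blank, with 1 sign, served for differences present in each group, and an F test for differences among ovariectomized groups. Shares of counts were compared with exact two-sided permutation tests over 455 arrangements, whose smallest p is 0.0022. The script was tested on simulated data.

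Named genes were, in each direction, those with the smallest p among genes with a symbol, 1 FPKM on average and no overlap between Blank and the ovariectomized libraries (5 where fewer than 5 passed), called members of the lists, 22 key genes whatever their p, and the 3 genes differing most among the ovariectomized groups. Added after seeing values were the 5 genes in each direction with the smallest of those largest p-values and the 4 smallest p of each list. The members and lists were chosen with earlier results of these data known. Key genes not described in the text are Dalrd3, Phf8, Fastkd1, Pla2g12a and Pparg, with log2 differences of 0.54, 0.37, 0.55, -0.77 and -0.64 and adjusted edgeR p-values of 0.194, 0.211, 0.234, 0.164 and 0.533.

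Alternatives were RLE size factors, no scaling factors, no filter, a mean FPKM of 5, the replicate number as a block, the muscle score as a covariate, DESeq2 1.42.0, limma 3.58.1 on log2(FPKM + 1) and log2(FPKM + 0.1), 1 mean for all ovariectomized libraries, an unadjusted p of 0.01 with a 2-fold change, and leaving out groups or libraries. Leaving the mitochondrial and haemoglobin genes out of the totals was added after seeing the data. All columns of samples in the table were used.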

Additional observations from a re-analysis of the deposited data

How the results depend on the processing

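The 3 calls of the average contrast were the same 3 with RLE size factors, with no low-count filter, with a mean FPKM of at least 5 and with mitochondrial and haemoglobin genes left out, the last an alternative chosen after seeing the data. The count was 5 with no scaling factors, which moves the median of all genes to -0.14, 0 with the muscle score as covariate, 361 with DESeq2, 38 and 0 with limma on log2(FPKM + 1) and log2(FPKM + 0.1), 0 with 1 mean for all 12 libraries, 376 at an unadjusted p under 0.01 with a 2-fold change, 1, 9, 7 and 0 without the Model, SYT, YJT and YJZYT groups, and 0 without YJT3 and YJZYT3 together. The Model count of 4 became 0 with no scaling factors, 0 with the covariate, 289 with DESeq2, 40 and 2 with the limma fits and 0 without YJT3 and YJZYT3. The YJZYT count of 66 became 19 at a mean FPKM of at least 5, 0 with the covariate, 724 with DESeq2, 313 and 279 with the limma fits and 1 without YJT3 and YJZYT3. DESeq2 gave 35 for SYT, 116 for YJT, 4 for all groups separately and 335 among the ovariectomized groups. Leaving out each library in turn gave 0 to 39 genes for the average, 0 to 7 for Model, 0 to 4 for SYT, 0 to 1 for YJT, 0 to 168 for YJZYT, 0 to 1 for all groups separately, 0 to 1 among the ovariectomized groups, 34 to 293 for the slope on the muscle score, and differences in share of 5.20 to 7.53 percentage points for the mitochondrial genome, -2.24 to 0.43 for haemoglobin and -0.78 to -0.53 for muscle. The cause of these changes was not tested.

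With the replicate number as a block the average gave 0 calls, Model 0 and YJZYT 6, and Pkia, Adssl1 and Mlf1 had adjusted edgeR p-values of 0.0548, 0.0576 and 0.0548. The numbers are not known to pair the samples: deviations of 30 same-numbered pairs correlated between -0.418 and 0.400, with a median of -0.018 and 9 above 0.1.

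Among 827 values of single genes under the alternatives, 710 kept direction and side of the threshold, 42 lost the call, 24 gained one and 51 turned sign, all 51 for bone genes that were not called. Col1a1 was -0.058 with no scaling factors, -0.36 and -0.36 with the limma fits, -0.078 without Model and -0.20 without SYT. Tnfrsf11b was -0.093 with the replicate block, -0.17 and -0.33 with the limma fits and -0.19 without SYT. Ctsk, Runx2 and Acp5 were 0.21, 0.46 and 0.37 with the covariate, 0.053, 0.031 and 0.050 with 1 mean, 0.23, 0.10 and 0.16 without YJT, 0.0030, 0.10 and 0.070 without YJZYT and 0.18, 0.14 and 0.22 without YJT3 and YJZYT3. Leaving out each library in turn gave -0.34 to 0.39 for Acp5, -0.49 to 0.10 for Bglap, -0.32 to 0.48 for Col1a1, -0.39 to 0.52 for Ctsk, -0.25 to 0.26 for Runx2 and -0.26 to 0.29 for Tnfrsf11b.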

Other observations

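Cartilage and tendon lists had medians of opposite sign. Of 18 cartilage genes 16 were higher, with a median log2 difference of 0.80 (0.02 without YJT1, 1.46 without Blank2) and 0 at an unadjusted edgeR p under 0.05, and 0 passed adjustment. The lubricin gene Prg4, at 9.18 to 19.3 CPM in Blank, was at 1800 CPM in SYT2, 1220 in YJT1, 813 in SYT3 and 127 in Model1, and at 1.42 to 16.4 CPM in the other ovariectomized libraries. All 17 genes of tendon, periosteum and fibroblasts were lower, with a median of -0.87. Of them 8 had an unadjusted edgeR p under 0.05 (6.45% of all genes were lower at that p). By group the median was -0.51 (Model), -0.17 (SYT), -0.36 (YJT) and -1.98 (YJZYT), and the average was -0.33 with the muscle score as covariate. Igfbp6, a binder of insulin-like growth factors, gave -2.29 ± 0.66 (SE, adjusted edgeR p 0.226) and -4.38 in YJZYT. The median of the 24 genes of the BMP and TGF-beta list was -0.32 (-0.14 without Blank2, 0.03 with the muscle score as covariate), with -0.02 for Model, -0.01 for SYT, -0.47 for YJT and -0.57 for YJZYT. The medians were -0.31 for the 14 genes of the IGF system and -0.14 for the 18 of the interferon response, which was -0.34 without Blank2 and 0.18 without Blank3.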
